A study of Mus musculus with 3 samples.

Results

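The replication-type histone genes are the copies of the core histones (H2A, H2B, H3, and H4) and of the linker histone H1 whose symbols begin with Hist1h, Hist2h, Hist3h, or Hist4h. They were chosen by this start of the symbol from the genes that the authors listed at an unadjusted p-value under 0.05 in any of 3 comparisons, and 28 of the 1237 listed gene names qualified. Hist1h2bh (an H2B gene) and Hist1h2ah (an H2A gene) lead the account because both were listed at 0 in the Saline library. GENCODE M21, a mouse gene annotation, holds 70 symbols of this kind, so 42 were not listed and could not be read here. By family, 5 of 6 annotated H1 genes, 4 of 20 H2A, and 5 of 19 H2B (with the pseudogene Hist3h2bb-ps) were listed. So were 7 of 12 H3 and 7 of 13 H4 genes. The share of all genes that was listed was not computed, so these counts have no background beside them.

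All animals were male apoE null mice, which lack apolipoprotein E, of the strain C57BL/6 in the labels and C57BL/6J in the study's methods, and were 12 weeks old when miniosmotic pumps were implanted. Angiotensin II (AngII) was infused at 1000 ng/kg/min in AngII AAA and AngII No AAA animals, of which the former had formed a dissecting abdominal aortic aneurysm (AAA) and the latter had not. The Saline cohort received saline. Tissue was taken within a day of the ultrasound diagnosis in the AngII AAA cohort, where it included the aneurysm, and on day 10 in both other cohorts. Each cohort gave 1 RNA-seq library of the suprarenal aorta, made from equal amounts of total RNA of 3 to 7 animals, so no difference between cohorts could be set against a spread between replicates, and no test was made. Collection time and aneurysm cannot be told apart in the AngII AAA cohort.

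As background, a cell that copies its DNA needs new histones to wrap it, and the replication-type genes supply them during S phase, the DNA synthesis phase of the cell cycle. They have no introns, lie in clusters, and make messages that end in a short stem loop in place of a poly(A) tail. Stem-loop binding protein (Slbp) holds that stem loop, and the messages are broken down when DNA synthesis stops. Replacement variants such as H2afz are encoded elsewhere and are made outside S phase as well. The libraries were built from total RNA, so a message did not need a poly(A) tail to be read.

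The stem loop was searched for in the annotated sequence after the coding part of each GENCODE M21 transcript, and its forms are shown because they mark these messages. The search took the consensus histone stem loop on the sense strand. It was found in 19 of the 28 genes, and these 19 were also the genes with at least 50 annotated bases after the coding part. It began 25 to 55 bases after the stop codon (median 34). Of 21877 protein-coding genes, 77 (0.352%) held it after the coding part, and 46 of these 77 were among the 67 protein-coding replication-type histone genes. The 6 forms, with the paired stem in capitals and the loop in lower case, were as follows.
7 genes, among them Hist1h2bh, Hist1h1e, and Hist1h2ab: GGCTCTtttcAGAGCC
5 H4 genes, Hist1h4c, Hist1h4d, Hist1h4f, Hist1h4m, and Hist4h4: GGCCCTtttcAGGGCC
4 genes, Hist1h2bb, Hist1h3c, Hist1h3e, and Hist1h3f: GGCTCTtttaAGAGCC
Hist1h3g: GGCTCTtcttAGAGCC
Hist1h4a: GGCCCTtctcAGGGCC
Hist1h4b: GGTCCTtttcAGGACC
The H4 genes paired their stem with other bases than the H1, H2A, H2B, and H3 genes did. Hist1h2ah had only 2 annotated bases after its coding part and Hist1h2bn had 0, so the search could not find the stem loop in either.

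In the authors' coordinates (mm9 in the submitters' processing notes), 24 of the 28 genes lay on chromosome 13 between bases 21809497 and 23856281. Hist1h2bh was at chr13:23634792-23635313 and Hist1h2ah at chr13:22126991-22127512. Hist2h3b and Hist2h2bb were neighbours on chromosome 3, Hist4h4 was on chromosome 6, and Hist3h2bb-ps was on chromosome 11. Hist1h2bh was 607 bases from Hist1h3f, and Hist1h2ak was 210 bases from Hist1h2bn, which is read from the opposite strand.

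The promoters of the H2A and H2B genes with a value of 0, and of Hist1h2ak, the neighbour of Hist1h2bn, are shown to let the shared motifs be seen. RefSeq promoter sequences (build GRCm38.p6, a later build than that of the authors' files) matched 25 of the 28 genes, and the 150 bases before the start are printed from 5′ to 3′ with CCAAT, or its reverse ATTGG, in capitals.
Hist1h2bh, chr13:23543445-23543594, minus strand: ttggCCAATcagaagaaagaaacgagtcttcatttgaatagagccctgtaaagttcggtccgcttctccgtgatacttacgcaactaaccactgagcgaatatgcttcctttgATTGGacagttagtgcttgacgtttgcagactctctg
Hist1h2ah, chr13:22035644-22035793, minus strand: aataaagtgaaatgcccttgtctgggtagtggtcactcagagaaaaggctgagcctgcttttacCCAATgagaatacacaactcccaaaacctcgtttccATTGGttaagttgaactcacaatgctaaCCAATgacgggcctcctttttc
Hist1h2bn, chr13:21753926-21754075, plus strand: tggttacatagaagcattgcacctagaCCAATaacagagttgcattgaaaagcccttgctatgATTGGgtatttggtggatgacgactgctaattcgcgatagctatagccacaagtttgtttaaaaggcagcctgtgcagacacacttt
Hist1h2ak, chr13:21753913-21754062, minus strand: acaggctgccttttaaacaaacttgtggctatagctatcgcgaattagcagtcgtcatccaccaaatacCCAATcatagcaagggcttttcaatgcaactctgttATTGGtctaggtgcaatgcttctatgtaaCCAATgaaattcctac
The windows of Hist1h2bn and Hist1h2ak are largely the same bases on opposite strands. Within 250 bases before the start, on either strand, CCAAT was in 21 of 25 histone promoters against 33.8% of 32851 RefSeq promoters, and in all 18 of the H1, H2A, H2B, and H3 families. TATAAA was in 12 of 25 (all promoters 12.4%). The octamer ATTTGCAT was in 5 of 25, 3 H2A and 2 H2B genes (all promoters 1.6%), and AAACACA in 5 of 25, 4 of them H1 genes (all promoters 6.25%). The octamer lay 155 bases before the start of Hist1h2ah, outside the printed window. A match is a description of letters, and factor binding was not measured.

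Levels are given in FPKM (read fragments for each kilobase of a transcript, scaled by library size), which allows genes of different length to be compared. For every histone value, FPKM multiplied by the locus length was a whole multiple of 1 constant per library and comparison, within 0.05. That constant was taken as 1 read, so each value is also given as reads. The constant divided by a whole number would also give whole multiples, with more reads for each value. The scaled library sizes that the constant implies lie far below the total reads per library stated in the paper. The reason for this gap was not tested, so all read counts and their intervals rest on this choice of 1 read. The same library gave the same reads in different comparisons for 9 of 9 genes in AngII AAA, 2 of 2 in AngII No AAA, and 3 of 3 in Saline. This is no check of the recovery, because the FPKM of a library differed between comparisons by a near-constant factor. For AngII No AAA vs. Saline, the value of 1 read was itself carried over by that factor from the other comparisons. At equal FPKM, the AngII AAA library held 1.5 reads for each Saline read and 1.47 for each AngII No AAA read. Intervals are exact 95% intervals of the read counts or of their ratio, and cover counting error only, not the spread between animals.

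Histone genes made up 40 entries in the 3 comparisons. Of these, 21 compared AngII AAA with AngII No AAA, 16 compared AngII AAA with Saline, and 3 compared AngII No AAA with Saline. All 40 were higher in the first-named library. Among all listed genes, 79%, 84.6%, and 63.5% were higher in the first-named library of these comparisons, in this order. Because the genes were selected on these same comparisons, the direction and the size are a description. Of the 28 genes, 18 were listed in a single comparison and 10 in 2 or more, and Hist1h2ab and Hist1h2ak were in all 3. In bulk tissue, fewer cells of a type and less RNA per cell cannot be told apart.

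Hist1h2bh, which encodes an H2B, had 17.3 FPKM in the AngII AAA library, from 31 reads (interval 21.1 to 44.0). It was listed at 0 in the Saline library, where 3 reads would have been 2.51 FPKM. The AngII AAA level was 6.89-fold above that of 3 Saline reads. Hist1h2ah, which encodes an H2A, had 15.1 FPKM from 27 reads (interval 17.8 to 39.3) in AngII AAA and 0 in Saline. Its AngII AAA level was 6.00-fold above that of 3 Saline reads. The interval of 0 reads reached 3.69 reads, so neither fold is a lower limit of the ratio. Neither gene was listed in the comparisons with AngII No AAA, so their levels in that library could not be read.

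The other H2B entries at 0 in Saline were Hist1h2bn and Hist3h2bb-ps. Hist1h2bn had 13.5 FPKM from 20 reads in AngII AAA, 4.44-fold above the level of 3 Saline reads. Between AngII No AAA and Saline it had 5.26 FPKM from 5 reads in AngII No AAA, and the interval of these reads (1.62 to 11.7) overlapped that of the 0 Saline reads (0 to 3.69). Hist3h2bb-ps, an annotated pseudogene, had 7.51 FPKM from 12 reads in AngII AAA, 2.67-fold above the level of 3 Saline reads. Thus 4 of 16 histone entries for AngII AAA vs. Saline were at 0 in Saline, against 2.8% of all 715 entries. These 4 had the lowest levels of the 16 in AngII AAA.

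Hist1h2bh and Hist1h2ah could be read in 2 libraries only, so their pattern over these was a full share in AngII AAA and none in Saline. This is the pattern of every entry at 0 in Saline, which 20 single genes had with them included, so the measure of likeness sets no order among these 20. Besides the histone genes they included Glycam1 (34.7 FPKM in AngII AAA), Stfa2l1 (21.1 FPKM), Tlr8 (10.3 FPKM), Ccl4 (9.71 FPKM), and Il6 (6.16 FPKM).

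**Figure D1:**
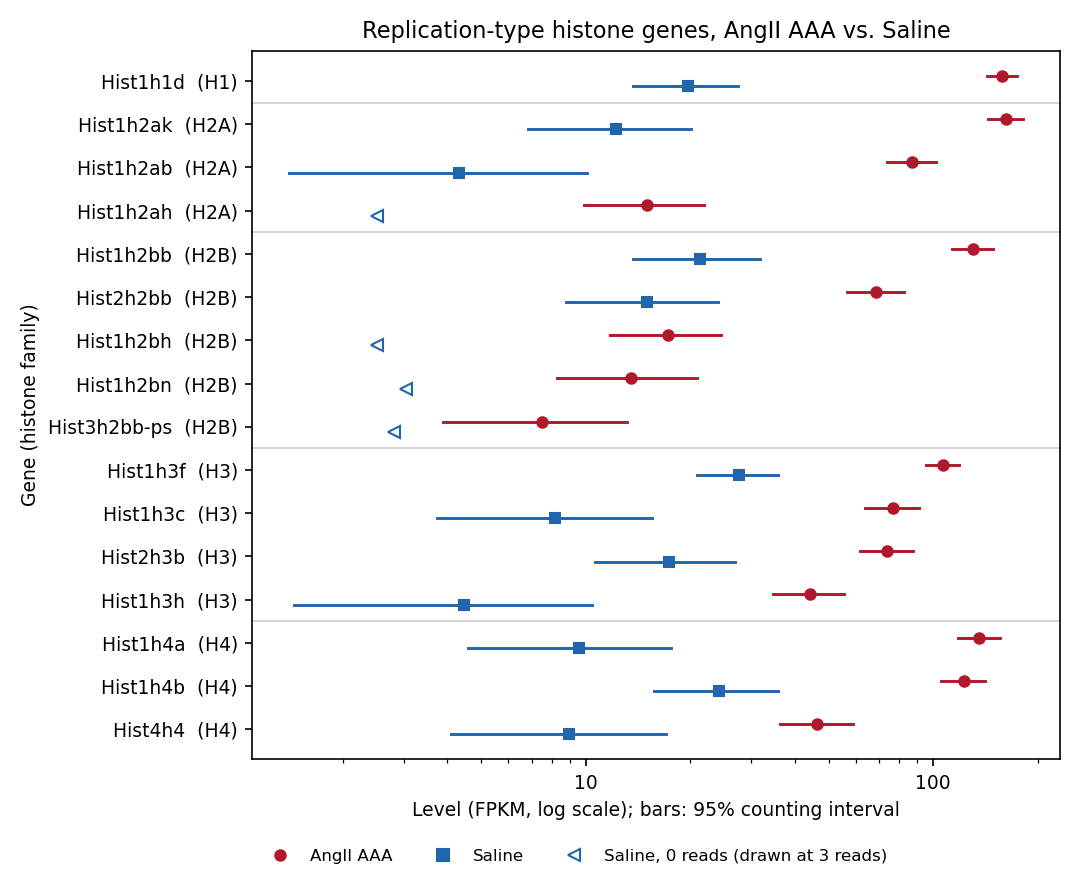
Level in FPKM (log axis) of the 16 histone genes listed for AngII AAA vs. Saline, grouped by histone family, with 1 pooled library per cohort. Bars are exact 95% counting intervals, and open triangles mark the level of 3 reads for the 4 genes with 0 reads in Saline. All red points (AngII AAA) lie right of the blue points (Saline) of the same gene, and no pair of intervals overlaps.

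Against Saline, both H2A genes with reads in both libraries were over 10-fold higher in AngII AAA. Hist1h2ab had 87.1 FPKM (151 reads) in AngII AAA and 4.32 FPKM (5 reads) in Saline, a ratio of 20.1 (interval 8.44 to 62.9), the largest of the 12 entries with reads in both. Hist1h2ak had 162 FPKM (298 reads) and 12.2 FPKM (15 reads), a ratio of 13.2 (7.90 to 24.0). The wide interval of Hist1h2ab followed from its 5 Saline reads.

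Of the H2B genes with reads in both libraries, Hist1h2bb had 130.1 FPKM (219 reads) in AngII AAA and 21.4 FPKM (24 reads) in Saline, a ratio of 6.08 (3.98 to 9.70). Hist2h2bb, from the chromosome 3 cluster, had 68.5 FPKM (116 reads) and 15.1 FPKM (17 reads), a ratio of 4.55 (2.72 to 8.08). Its neighbour, the H3 gene Hist2h3b, had 73.7 FPKM (127 reads) and 17.4 FPKM (20 reads), a ratio of 4.23 (2.63 to 7.16). The ratios of these chromosome 3 neighbours lay within each other's intervals.

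Of the other H3 genes, Hist1h3f had 106 FPKM (330 reads) in AngII AAA and 27.6 FPKM (57 reads) in Saline, the highest Saline level of the 16. Its ratio of 3.86 (2.91 to 5.21) was the smallest of the 12 and the only one under 4. Hist1h3c stood at 76.4 against 8.19 FPKM, and Hist1h3h at 44.2 against 4.48 FPKM. The H4 gene Hist1h4a had 136 FPKM (212 reads) in AngII AAA and 9.60 FPKM (10 reads) in Saline, a ratio of 14.1 (7.54 to 29.9). Hist1h4b stood at 122 against 24.3 FPKM, and Hist4h4, which lies alone on chromosome 6, at 46.4 against 8.95 FPKM. The linker histone gene Hist1h1d had 158 FPKM (421 reads) and 19.7 FPKM (35 reads), a ratio of 8.02 (5.67 to 11.7). With any value of 0 in Saline counted as over 4-fold, 15 of 16 entries were over 4-fold higher, against 63.1% of all listed entries counted the same way.

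**Figure D2:**
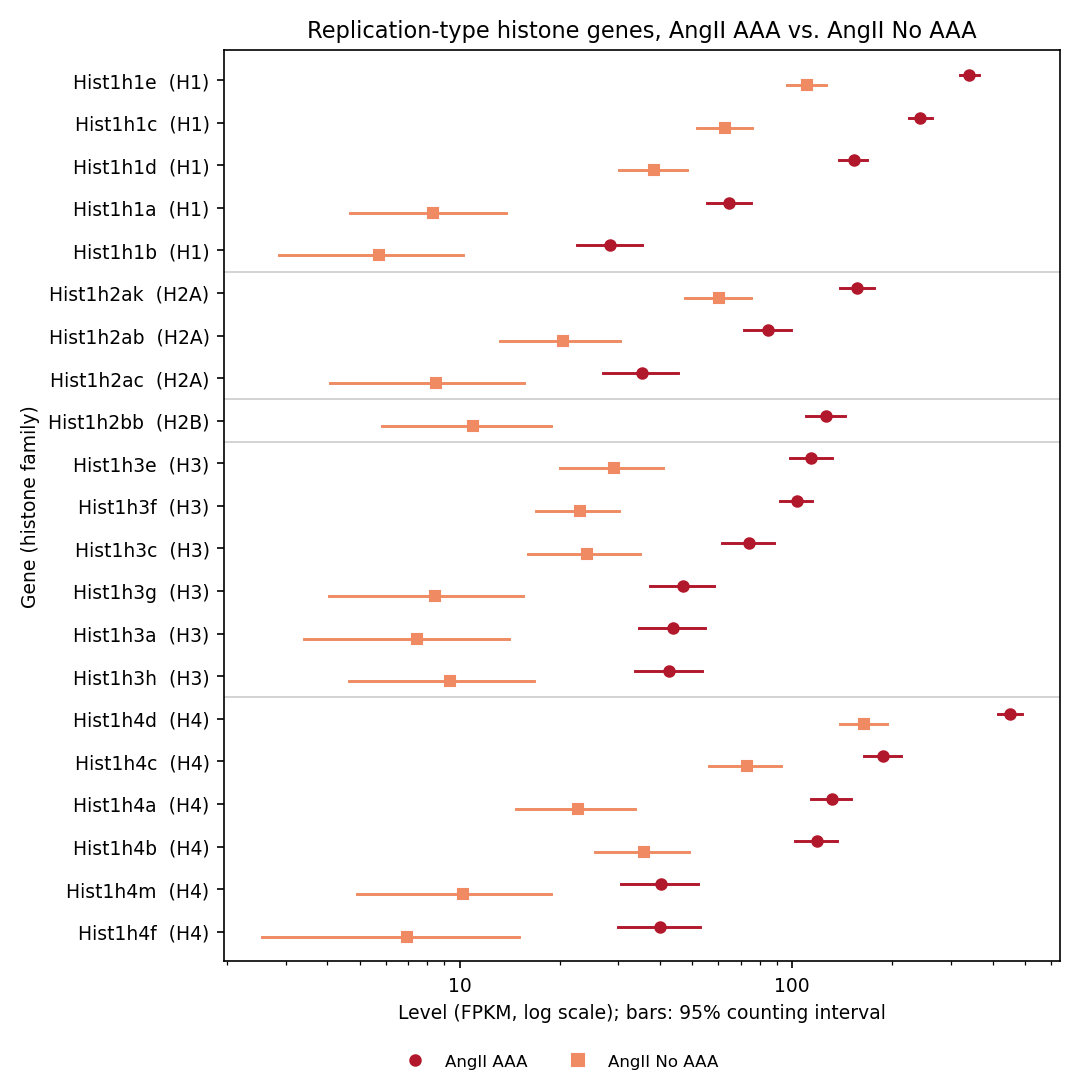
Level in FPKM (log axis) of the 21 histone genes listed in the comparison of AngII AAA with AngII No AAA, grouped by histone family, with 1 pooled library per cohort and exact 95% counting intervals as bars. AngII AAA levels ran from 28.4 to 452 FPKM and AngII No AAA levels from 5.74 to 164 FPKM, and each AngII AAA interval lies right of that of the same gene in AngII No AAA.

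Against AngII No AAA, which also received AngII, all 5 listed H1 genes, which encode the histone that binds DNA between nucleosomes, were higher in AngII AAA. Hist1h1e had 341 FPKM (946 reads) in AngII AAA and 111 FPKM (209 reads) in AngII No AAA, a ratio of 3.08 (2.65 to 3.60). Hist1h1c had 243 FPKM (624 reads) and 62.8 FPKM (110 reads), a ratio of 3.86 (3.15 to 4.77). The 2 H1 genes with the lowest levels had higher ratios, of 7.76 (4.57 to 14.2) for Hist1h1a, at 64.7 against 8.34 FPKM, and of 4.95 (2.62 to 10.3) for Hist1h1b, at 28.4 against 5.74 FPKM. Hist1h1d stood at 153 against 38.4 FPKM. The interval of Hist1h1a did not overlap that of Hist1h1e.

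The H4 gene Hist1h4d had the highest level of all members, with 452 FPKM (590 reads) in AngII AAA and 164 FPKM (146 reads) in AngII No AAA, a ratio of 2.75 (2.29 to 3.32). Hist1h4c, at 187 against 72.9 FPKM, had the smallest ratio of the 21, 2.57 (1.95 to 3.42). Listing followed the unadjusted p-value and not the ratio, and histone genes past that threshold were not analysed here. The other 4 H4 genes had ratios from 3.30 (Hist1h4b, 118 against 35.9 FPKM) to 5.78 (Hist1h4f, 40.1 against 6.94 FPKM, from 51 and 6 reads). Between them were Hist1h4m, at 40.4 against 10.2 FPKM, and Hist1h4a, at 131 against 22.8 FPKM.

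The 6 H3 genes had ratios from 3.06 (Hist1h3c) to 5.90 (Hist1h3a, 43.8 against 7.42 FPKM). The highest H3 level was that of Hist1h3e, with 114 FPKM (190 reads) in AngII AAA and 29.1 FPKM (33 reads) in AngII No AAA. Hist1h3g stood at 47.0 against 8.42 FPKM, Hist1h3f at 103 against 22.9 FPKM, and Hist1h3h at 42.7 against 9.33 FPKM. The H2A genes Hist1h2ak, Hist1h2ab, and Hist1h2ac had ratios of 2.60, 4.11, and 4.15, and of these Hist1h2ac was lowest, at 35.3 against 8.50 FPKM. The single H2B entry, Hist1h2bb, had 126 FPKM (219 reads) against 11.0 FPKM (13 reads), and its ratio of 11.5 (6.57 to 21.9) was the largest of the 21. In all, 11 of 21 histone entries were over 4-fold higher in AngII AAA, against 31.5% of all 600 entries.

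The median log2 ratio of the histone entries was 2.04 between AngII AAA and AngII No AAA, beside 1.63 over all listed entries and 1.81 over those that were higher in AngII AAA. Between AngII AAA and Saline it was 2.80 over the 12 entries with a ratio, beside 2.26 over all and 2.46 over those higher in AngII AAA. Between AngII No AAA and Saline only 2 histone entries had a ratio, with a median of 2.27, beside 1.16 over all and 1.44 over those higher in AngII No AAA.

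In AngII No AAA vs. Saline, 3 histone genes were listed. Hist1h2ak had 65.9 FPKM (78 reads) in AngII No AAA and 13.4 FPKM (15 reads) in Saline, a ratio of 4.94 (2.82 to 9.24). Hist1h2ab had 22.4 FPKM (25 reads) and 4.73 FPKM (5 reads), a ratio of 4.75 (1.78 to 15.9). Hist1h2bn was at 0 in Saline, as given above. All 3 were over 4-fold or at 0 in Saline, against 11.9% of all 564 entries. No H1, H3, or H4 gene was listed in this comparison.

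Because the comparisons share libraries, 10 genes could be read in all 3 libraries, and their levels were placed on the FPKM scale of AngII AAA vs. Saline. The median level was 114 FPKM in AngII AAA, 23.6 FPKM in AngII No AAA, and 10.9 FPKM in Saline, and the summed reads were 2040, 346, and 185. AngII AAA was highest for all 10. All 10 had been listed for AngII AAA vs. Saline, and all but Hist1h2bn for AngII AAA vs. AngII No AAA. Being selected on these comparisons, their place is a description. AngII No AAA was above Saline for 8 of the 10 and below it for Hist1h3f and Hist1h2bb.

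The ratio of AngII No AAA to Saline had an interval above 1 for 5 genes, Hist1h2ak (5.09), Hist1h2ab (4.90), Hist1h3c (3.05), Hist1h4a (2.45), and Hist1h1d (2.02). Hist1h2ak and Hist1h2ab had been chosen on this same comparison. Hist1h3c, Hist1h4a, and Hist1h1d did not pass the authors' p-value threshold in it. They could be read here only through both comparisons with AngII AAA. Listing there favours genes with low levels in AngII No AAA and in Saline, so their intervals add no support. These intervals cover counting error only. The interval held 1 for 4 genes. These were Hist1h3h at 2.16 (0.690 to 7.91), Hist1h4b at 1.53 (0.902 to 2.63), Hist1h3f at 0.859 (0.576 to 1.28), and Hist1h2bb at 0.531 (0.248 to 1.08). For the remaining gene, Hist1h2bn, Saline was at 0. AngII AAA to AngII No AAA had an interval above 1 for 9 of the 10. These 9 had been listed for that same comparison, so their intervals add no support. The interval of Hist1h2bn, which was not listed there, held 1, at 2.81 (0.991 to 9.28).

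**Figure D3:**
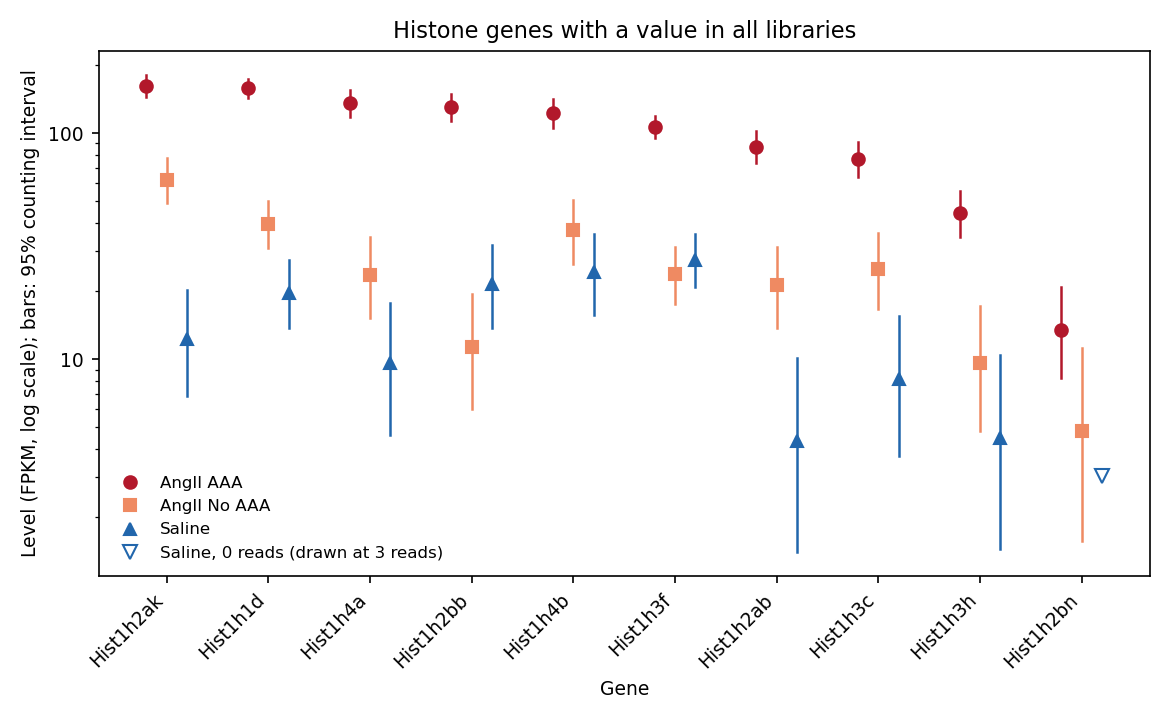
Level in FPKM (log axis) of the 10 histone genes with a value in all 3 libraries, ordered by level in AngII AAA, with exact 95% counting intervals as bars and an open triangle at 3 reads where Saline had 0. AngII No AAA lies between the others for 8 genes and under Saline for Hist1h2bb and Hist1h3f.

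The copies resemble each other, which bears on how reads were assigned. Over the coding part of each gene (the whole transcript for the pseudogene), the share of 61-base windows, the length of a read, that also occur in a transcript of another gene was counted in GENCODE M21. The median share over the 28 genes was 63.7%, and 18 genes had at least 50%. It was 63.9% for Hist1h2bh, whose nearest copy was Hist1h2bg, and 96.3% for Hist1h2ah, whose nearest copy was Hist1h2ad. How reads that fit several copies were assigned is not given in the sources used here, so the values of single copies are uncertain. Hist1h1a, Hist1h1b, and Hist4h4 had a share of 0%. The ratios of Hist1h1a and Hist1h1b to AngII No AAA were 7.76 and 4.95, and that of Hist4h4 to Saline was 5.19. Hist2h3b and Hist2h2bb had 100%, each also lying within the annotated Gm20628 transcript.

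Of the other genes that make or handle histones, few were listed, and each was higher in the first-named library, as 79%, 84.6%, and 63.5% of all entries were. Slbp, which binds the stem loop, was 12.8 FPKM in AngII AAA and 4.35 in AngII No AAA, and 13.2 against 4.02 in Saline. It was the only one of 12 histone message processing genes listed. The variant H2afz was 42.2 against 14.3 FPKM in AngII No AAA and 43.6 against 13.5 in Saline. H2afx, which is phosphorylated at DNA breaks, was 34.5 against 6.75 FPKM in Saline. Cenpa, the centromere H3 variant, was 12.0 against 1.80 FPKM in Saline, and was the only variant listed for AngII No AAA vs. Saline (8.97 against 1.97 FPKM). Of 18 histone chaperones, Nasp alone was listed, at 15.2 against 3.77 FPKM in Saline.

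Most DNA replication and mitosis genes were not listed, so their direction is not known. As the share of all genes that was listed was not computed, the numbers listed from these lists have no background. The same holds for the histone handling genes above. Of 54 DNA replication genes, 4 were listed against AngII No AAA and 8 against Saline in the comparisons with AngII AAA, and 3 between AngII No AAA and Saline. All were higher in the first-named library, as 79%, 84.6%, and 63.5% of all entries were, and their median log2 ratios were 1.54, 2.20, and 1.70. They included Rrm1, a ribonucleotide reductase subunit (15.7 against 6.11 FPKM in AngII No AAA), Mcm4, a subunit of the replicative helicase (14.8 against 5.54 FPKM in AngII No AAA), and Gins4 (14.7 against 3.95 FPKM in AngII No AAA). Pcna, the sliding clamp of DNA polymerases, was 34.2 against 7.97 FPKM in Saline, and Mcm3 was 14.3 against 1.82 FPKM.

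Of 62 mitosis genes, 6, 16, and 9 were listed for these comparisons, and all were again higher in the first-named library, with median log2 ratios of 1.69, 2.96, and 1.79. Mki67, a marker of cycling cells, was 36.6 FPKM in AngII AAA against 13.2 in AngII No AAA, and 37.8 against 2.43 in Saline. Ube2c, which acts in mitotic exit, was 58.8 against 10.3 FPKM in Saline. For AngII No AAA vs. Saline, Ube2c was 34.1 against 11.3 FPKM and Mki67 14.5 against 2.65 FPKM. Nuf2, a kinetochore protein, had the largest ratio of the 6 listed against AngII No AAA, with 6.44 and 1.21 FPKM.

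**Figure D4:**
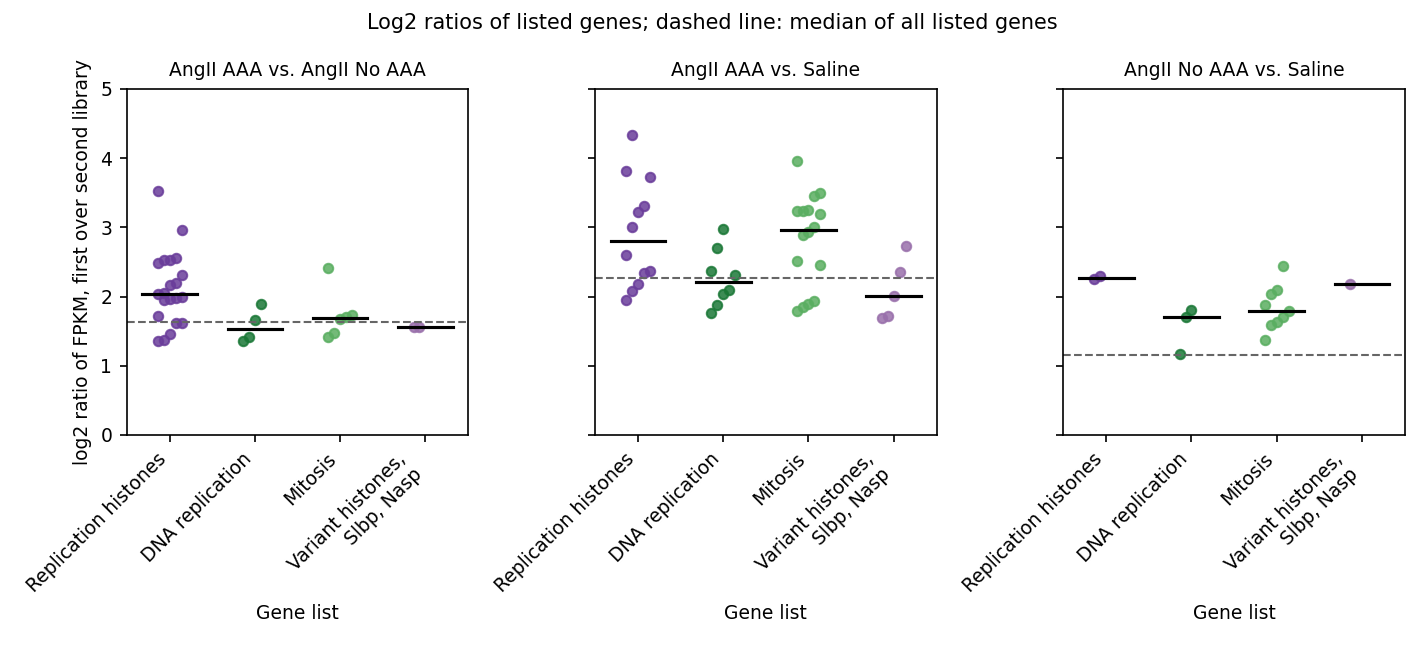
Log2 ratio of FPKM, first-named over second-named library, for each listed gene of 4 groups in the 3 comparisons, with black lines at group medians and dashed lines at the median of all listed genes. Genes at 0 in the second-named library have no ratio and are not drawn. Histone medians were 2.04 (21 genes), 2.80 (12 genes), and 2.27 (2 genes), and the dashed lines, which include genes that were lower, stand at 1.63, 2.26, and 1.16.

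Markers of other cell types were listed beside the histone genes in both directions. Their direction is read against the 79%, 84.6%, and 63.5% of all entries that were higher in the first-named library. The share of all genes that was listed was not computed, so the number listed from each marker list has no background beside it. Between AngII AAA and AngII No AAA, 11 of 18 neutrophil markers (summed level 1461 against 112 FPKM), 11 of 17 macrophage markers (1834 against 324 FPKM), and 8 of 10 adrenal cortex markers (528 against 36.0 FPKM) were listed and higher in AngII AAA. The B cell genes Cd79a and Cd79b were listed and higher too, the only 2 of 13 lymphocyte markers. Of 11 smooth muscle markers, which define the aortic wall, 8 were listed and lower (784 against 2609 FPKM), with Acta2 at 304 against 926 FPKM and Myh11 at 76.6 against 279 FPKM. None of the 10 erythroid, 13 skeletal muscle, or 7 immature granulocyte markers was listed.

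For AngII AAA vs. Saline, 12 of 18 neutrophil (2816 against 184 FPKM), 15 of 17 macrophage (2757 against 275 FPKM), 8 of 10 adrenal cortex (518 against 28.8 FPKM), and 7 of 10 erythroid markers were listed and higher in AngII AAA. The erythroid count holds 2 alpha-globin loci that the authors list under 1 joint name. Cd79a and Cd79b were again the lymphocyte markers listed, and 3 of 11 smooth muscle and 4 of 13 skeletal muscle markers were lower. For AngII No AAA vs. Saline, 11 of 17 macrophage markers (736 against 274 FPKM), 8 of 10 erythroid markers, and 2 of 18 neutrophil markers were higher, 10 of 13 skeletal muscle markers were lower, and no adrenal cortex or smooth muscle marker was listed. Of the endothelial markers, Glycam1 was listed and higher in AngII AAA against both other libraries, and Emcn against Saline. The immature granulocyte markers were listed in no comparison. The part of these cell types in the histone levels was not tested.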

How the data were processed

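RNA-seq was analysed for 3 suprarenal libraries, 1 per cohort, grouped by the sample labels. The authors used FastQC, HISAT2, Cufflinks, and Cuffdiff on Galaxy with mm9, per the submitters' processing notes (versions not given), after depleting ribosomal RNA. The authors deposited FPKM for the 2 libraries of each comparison and kept genes with an unadjusted p-value under 0.05 (600, 715, and 564 entries, all of which passed). Their fold changes, scores, and significance columns were not used.

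Ratios were recomputed from FPKM with no pseudocount. Reads were recovered as FPKM times locus length divided by the constant of a library. Values of 0 got no ratio and were set beside the level of 3 reads. Levels in all 3 libraries were scaled by the median ratio between comparisons, and AngII No AAA values came from the comparison with AngII AAA where listed there. Depth limits the genes with few reads. The genes and lists were chosen with earlier results of these data known. Every listed histone gene is given with its level. Of the DNA replication and mitosis lists, examples came from the 6 listed genes with the highest level in AngII AAA. The recovery of reads was tested on simulated data. Python 3.11.15, pandas 2.3.3, numpy 2.4.6, scipy 1.17.1, and matplotlib 3.10.9 were used.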

Additional observations from a re-analysis of the deposited data

How the results depend on the processing

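Of 26 alternatives, 22 gave a count within 1.5 times the reported one or a median log2 ratio within 0.1 of it. The counts stayed within this limit for entries of a single gene and for at least 1 or 5 FPKM in the higher library. These filters could remove no histone entry, since each named a single gene and had at least 5.26 FPKM in the higher library. The order AngII AAA, AngII No AAA, Saline held for 8 genes also with unscaled FPKM and with the other source of the AngII No AAA value. Pseudocounts of 1 and 0.1 left the medians of both comparisons with AngII No AAA within the limit. The median for AngII AAA vs. Saline rose from 2.80 to 3.06 with a pseudocount of 1 and to 3.24 with a pseudocount of 0.1, since the 4 genes at 0 in Saline then entered it. Requiring at least 10 reads in both libraries, chosen after seeing the data, left 8 of 16 histone genes for AngII AAA vs. Saline, 1 of 3 for AngII No AAA vs. Saline, and, within the limit, 19 of 21 for AngII AAA vs. AngII No AAA. The scale of AngII No AAA differed by a ratio of 0.969 between its 2 sources. No paired analysis was possible because each cohort had 1 library, and for the same reason no replicate could be left out.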
